A study of Arabidopsis thaliana with 12 samples.

Results

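The genes described are PUB22 (AT3G52450) and PUB23 (AT2G35930), which encode U-box ubiquitin ligases with armadillo repeats, the armadillo-repeat gene AT3G02840 and the RING gene AT2G42360. Each was taken from a probe set that lists only that gene in the platform annotation, and each had 1 such probe set, so 4 of the 13286 genes named on the array are covered. AT3G02840 and PUB22 lie on chromosome 3, PUB23 and AT2G42360 on chromosome 2. The genes were picked from earlier results on these arrays: AT3G02840, AT2G42360 and PUB22 for their change with ATP in the wild type, AT3G02840 also for its difference between genotypes, and PUB23 for its lower level in the mutant in buffer. Their values in those comparisons, and in the comparison of genotypes under ATP, which uses the same arrays, are therefore given as a description, without p-values. Where the number of these genes past the limma threshold is given there, it describes genes that were picked on the same arrays and tests nothing. The response to ATP within the mutant was tested for AT2G42360 and PUB22, whose choice did not rest on dorn1-1 arrays, and is a description for AT3G02840 and PUB23.

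The study measured root transcripts of Arabidopsis thaliana on 12 one-colour arrays, 3 biological replicates in each of 4 groups. Ordered by genotype, the groups were dorn1-1 roots given ATP, dorn1-1 roots given buffer, wild-type roots given ATP and wild-type roots given buffer. The mutant dorn1-1 carries an EMS-induced lesion in a lectin receptor kinase in the Col-0 background, so the genotype contrast rests on a single allele. The wild type was Col-0 with a transgene for aequorin, a protein that reports calcium. The labels do not say whether dorn1-1 also carries this transgene, and if it does not, the mutation and the transgene cannot be told apart in the genotype differences. Each replicate was a pool of 120 whole seedlings, 5 days old, kept overnight in the dark in a solution of 2 mM MES plus 10 mM CaCl2. Roots were collected 30 min after treatment. For ATP the sample titles give 100 mM and the protocol gives 100 µM, and which dose was used is not known here. All values are RMA values on the log2 scale, where a difference of 1 is a 2-fold difference. The number of arrays limits the precision.

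Ubiquitin ligases attach ubiquitin to target proteins, which are then often degraded, and the U-box and the RING are the domains through which such ligases recruit the enzyme that carries ubiquitin. Armadillo repeats bind other proteins. In Arabidopsis PUB22 and PUB23 act together with PUB24 to dampen the immune response that follows recognition of microbial patterns, and transcripts of many U-box and RING ligases rise soon after plants meet an elicitor. ATP outside the cell is released on wounding and acts through a receptor kinase at the plasma membrane.

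The armadillo-repeat gene AT3G02840 had the widest separation between groups. Its log2 values were 6.44, 5.96 and 6.36 in dorn1-1 ATP, against 5.70, 5.72 and 5.74 in dorn1-1 buffer. They were 7.71, 7.97 and 7.81 in wild-type ATP, against 5.70, 5.76 and 5.75 in wild-type buffer. The buffer arrays of both genotypes sat within a narrow band, all wild-type ATP arrays lay far above it, and the dorn1-1 ATP arrays lay between, with replicate 2 nearest to buffer. The wild-type change with ATP was 2.09 (SE 0.13, 4.27-fold), the 10th largest rise among 22746 probe sets. In order of level, wild-type ATP (7.83 ± 0.13) stood above dorn1-1 ATP (6.25 ± 0.26) without overlap of arrays, and dorn1-1 ATP above wild-type buffer (5.74 ± 0.04), also without overlap (SD, n = 3 each). The levels in wild-type buffer and dorn1-1 buffer (5.72 ± 0.02) overlapped.

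The RING gene AT2G42360 had log2 values of 4.96, 4.57 and 5.56 in dorn1-1 ATP, against 4.93, 4.75 and 4.85 in dorn1-1 buffer. In the wild type it had 6.11, 6.76 and 6.50 in ATP, against 5.44, 5.30 and 4.53 in buffer. All wild-type ATP arrays lay above every other array, and the other groups overlapped one another. Its wild-type change was 1.37 (SE 0.27, 2.58-fold), and the order of mean levels was 6.46 ± 0.33 in wild-type ATP, 5.09 ± 0.49 in wild-type buffer, 5.03 ± 0.50 in dorn1-1 ATP and 4.84 ± 0.09 for dorn1-1 buffer (SD, n = 3 each). Only the first of these steps exceeded the spread of the arrays. AT2G42360 was the most variable of the 4 genes within groups, with a pooled SD of 0.39 on the log2 scale against a median of 0.18 over all probe sets.

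PUB22 moved over a far smaller range. Its log2 values were 8.72, 8.62 and 8.71 in dorn1-1 ATP, against 8.49, 8.81 and 8.72 in dorn1-1 buffer. They were 9.13, 9.13 and 9.00 in wild-type ATP, against 8.74, 8.78 and 8.61 in wild-type buffer. Every wild-type ATP array again lay above all other arrays, and the remaining 3 groups, with means of 8.71 in wild-type buffer, 8.69 in dorn1-1 ATP and 8.67 in dorn1-1 buffer, overlapped. The wild-type change was 0.38 (SE 0.11), and PUB22 had the smallest pooled within-group SD of the 4 genes, 0.10.

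PUB23 was the gene whose arrays separated by genotype. Its log2 values were 8.59, 8.73 and 8.70 in dorn1-1 ATP, against 8.35, 8.78 and 8.72 in dorn1-1 buffer. In the wild type they were 9.34, 9.94 and 9.43 in ATP, against 9.40, 9.07 and 9.01 in buffer. All 6 dorn1-1 arrays lay below all 6 wild-type arrays, whereas the ATP and buffer arrays overlapped in both genotypes, in the wild type through buffer replicate 1. The buffer difference between genotypes was -0.54 (SE 0.17, 1.46-fold lower in dorn1-1) and the wild-type change with ATP was 0.41 (SE 0.17, 1.33-fold). Without wild-type ATP replicate 2, the highest array, the wild-type change was 0.23. In order of level, the means were 9.57 ± 0.32 in wild-type ATP, 9.16 ± 0.21 in wild-type buffer, 8.68 ± 0.07 in dorn1-1 ATP and 8.61 ± 0.23 for dorn1-1 buffer (SD, n = 3 each). Of these steps, the one between wild-type buffer and dorn1-1 ATP alone had no overlap.

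**Figure D1:**
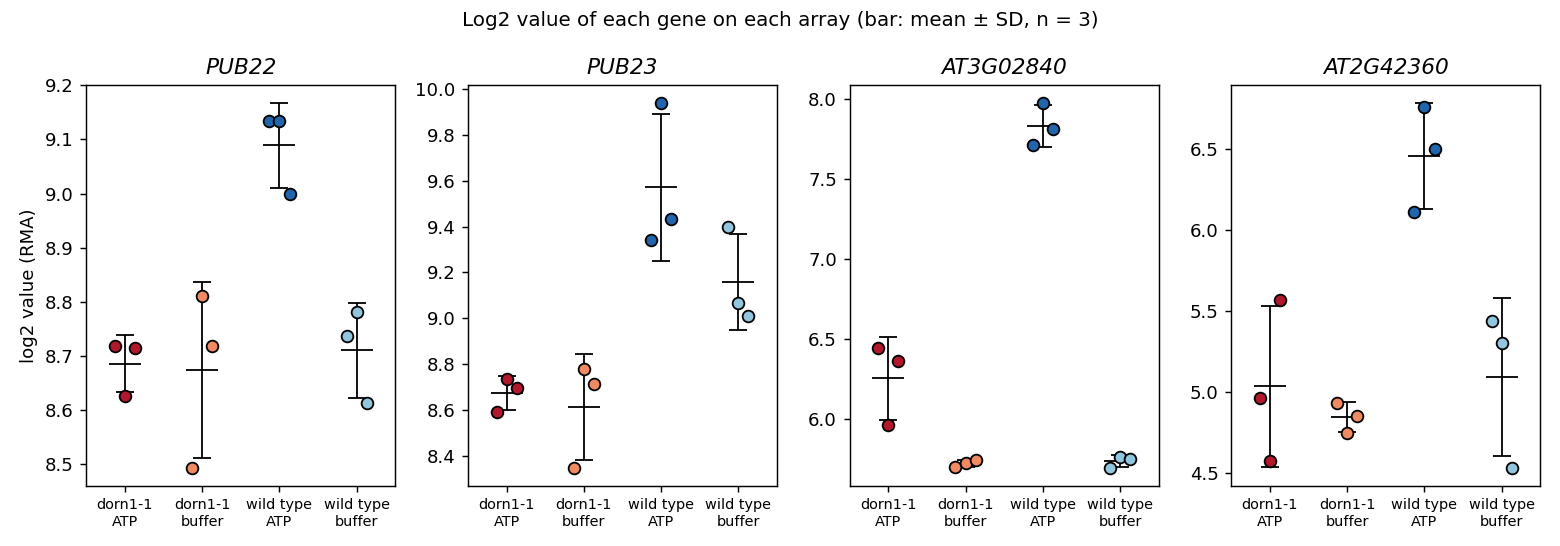
Log2 RMA values (vertical axis, a separate range for each gene) of the 4 genes on each of the 12 arrays, with the mean and SD of each group of 3. The 3 wild-type ATP arrays stand above all others for AT3G02840, AT2G42360 and PUB22, the dorn1-1 ATP arrays of AT3G02840 lie between, and the 6 dorn1-1 arrays of PUB23 lie below the 6 wild-type arrays.

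In the wild type, then, all 4 means were higher with ATP, as were those of 44.8% of all probe sets. For 3 of the 4 genes the 3 ATP arrays lay above the 3 buffer arrays, as they did for 13.9% of all probe sets. At an adjusted p of 0.05 in limma over all probe sets, 2 of the 4, AT3G02840 and AT2G42360, were called higher, against 0.479% of all probe sets. The genes were picked for this response, so the counts describe them and no more. With each array omitted in turn, AT3G02840 was called in all 12 fits. AT2G42360 lay near the threshold: it was called in 4 of the 12, those without dorn1-1 buffer replicate 1 or 2 or without dorn1-1 ATP replicate 2 or 3. PUB22 was called in 1 of the 12, the fit without dorn1-1 buffer replicate 1. Over all probe sets that fit called 2316 of 22746, the others between 6 and 359, and the fit with all arrays 151.

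Green-tissue transcripts were also higher on all 3 wild-type ATP arrays than on the wild-type buffer arrays. Of 10 shoot marker genes 3 were measured, RCA, LHCB4.1 and PRK, which act in photosynthesis, and their mean log2 value ranged from 11.08 to 11.98 in wild-type ATP and from 9.76 to 10.59 in wild-type buffer (difference 1.34, exact permutation p = 0.1, two-sided, the smallest possible with 3 arrays against 3). In dorn1-1 it ranged from 10.63 to 11.27 in ATP and from 9.09 to 11.89 in buffer, where replicate 1 was the high array. Of 12 root marker genes 3 were measured, PYK10, EXPA7 and EXPA18, with a mean of 8.34 ± 0.16 in wild-type ATP and 8.89 ± 0.18 in wild-type buffer (SD, n = 3 each, exact permutation p = 0.1). With the shoot marker mean as a covariate, the wild-type changes were 2.09 for AT3G02840, 1.20 for AT2G42360, 0.48 for PUB22 and 0.64 for PUB23. In that fit AT3G02840 was called and AT2G42360 was not, with 78 of 22746 probe sets called in the wild-type response. The part of the root markers in these changes was not tested. These are bulk samples, in which fewer cells of a type and less RNA per cell cannot be told apart.

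Within dorn1-1 the mean of each gene was also higher with ATP, by less than in the wild type. The median dorn1-1 change over all probe sets was 0.02, and that of PUB22, 0.01, lay below it. AT3G02840 changed by 0.53 in dorn1-1 (SE 0.13, 95% interval 0.26 to 0.81, 1.45-fold), with all 3 ATP arrays above the 3 buffer arrays, as held for 3.71% of all probe sets. AT2G42360 changed by 0.19 in dorn1-1 (SE 0.27, 95% interval -0.41 to 0.79, limma adjusted p = 1.00) and PUB22 by 0.01 (SE 0.11, 95% interval -0.22 to 0.24, limma adjusted p = 1.00). For PUB23 the dorn1-1 change was 0.06 (SE 0.17, 95% interval -0.32 to 0.44). The ATP and buffer arrays of AT2G42360, PUB22 and PUB23 overlapped in dorn1-1. The PUB23 interval does not exclude a change of 0.41, the wild-type value. In dorn1-1 limma called 0 of the 4 genes and 0.00% of all probe sets, whereas 1 of the 4, AT3G02840, and 523 of 22746 probe sets had an unadjusted p under 0.05. AT3G02840 was picked for a difference that uses these arrays, so nothing is read from its p-value. With single arrays omitted, the dorn1-1 change of AT3G02840 lay between 0.44 and 0.68. That of PUB22 took the other sign without dorn1-1 buffer replicate 1 (-0.079) or dorn1-1 ATP replicate 1 or 3, that of PUB23 without dorn1-1 buffer replicate 1 (-0.072) and that of AT2G42360 without dorn1-1 ATP replicate 3 (-0.074).

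The difference in response subtracts the wild-type change from the dorn1-1 change. Against a median of 0.06 over all probe sets, it was below 0 for each of the 4 genes. It was -1.56 for AT3G02840 (SE 0.18), from changes of 0.53 in dorn1-1 and 2.09 in the wild type. For AT2G42360 it was -1.18 (SE 0.39), from 0.19 in dorn1-1 and 1.37 in the wild type. PUB22 had -0.37 (SE 0.15) and PUB23 -0.35 (SE 0.24), and the 95% interval of PUB23, -0.88 to 0.18, includes 0. Without wild-type ATP replicate 2 the PUB23 difference was -0.17. AT3G02840 alone was called by limma, 1 of the 4 genes, where 0.00879% of all probe sets were called lower. It was picked for this difference, so nothing is read from the call. With single arrays omitted it was called in 3 of 12 fits, those without dorn1-1 buffer replicate 1 or without dorn1-1 ATP replicate 1 or 2, while the difference itself lay between -1.65 and -1.41. Each of the 12 fits called between 1 and 3 of 22746 probe sets in this contrast.

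**Figure D2:**
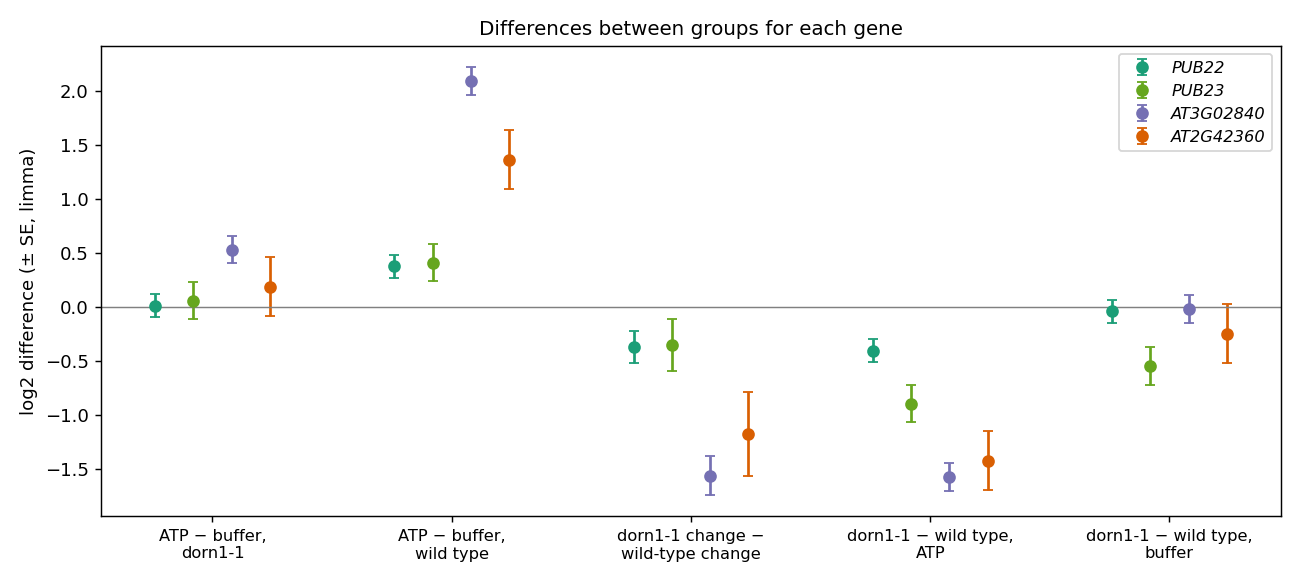
Log2 differences (vertical axis) with their limma SE for the 4 genes in 5 contrasts (horizontal axis). AT3G02840 and AT2G42360 change with ATP in the wild type by 2.09 and 1.37 and in dorn1-1 by 0.53 and 0.19, and PUB23 has the largest difference of the 4 in buffer, -0.54.

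Under ATP all 4 genes were lower in dorn1-1 than in the wild type, with no overlap between the arrays of the 2 genotypes, as for 9.89% of all probe sets. The log2 differences, dorn1-1 minus wild type, were -1.58 for AT3G02840 (SE 0.13, 2.98-fold lower), -1.42 for AT2G42360 (SE 0.27, 2.68-fold lower), -0.90 for PUB23 (SE 0.17, 1.86-fold lower) and -0.40 for PUB22 (SE 0.11, 1.32-fold lower). All 4 were called lower by limma, against 2.00% of all probe sets. Leaving out 1 array, AT3G02840 was called in 12 of 12 fits, PUB23 in 11, AT2G42360 in 9 and PUB22 in 2. PUB23 missed the threshold without dorn1-1 ATP replicate 2, and AT2G42360 without wild-type ATP replicate 2 or 3 or dorn1-1 ATP replicate 2. PUB22 was called without dorn1-1 buffer replicate 1 or 2 and in no other of these fits. Over all 22746 probe sets the 12 fits called between 272 and 2643, and the fit with all arrays 1519. The fits that called PUB22 called 2643 and 1786. The fit that lost PUB23 called 354, and those that lost AT2G42360 called 579, 272 and 354. This contrast holds the wild-type ATP arrays on which the genes were picked.

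In buffer the genotypes separated PUB23 and no other of the 4 genes. PUB23 was lower on all 3 dorn1-1 arrays, as were 11.1% of all probe sets, with 0 of the 4 genes called lower by limma against 0.0396% of all probe sets. AT3G02840 differed by -0.02 (SE 0.13), PUB22 by -0.04 (SE 0.11) and AT2G42360 by -0.25 (SE 0.27), each with overlapping arrays. The difference of PUB22 was 0.05 without dorn1-1 buffer replicate 1, and that of AT2G42360 lay between -0.52 and -0.07 with single arrays omitted. For PUB23 the dorn1-1 minus wild-type difference was thus -0.90 under ATP and -0.54 in buffer.

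Genes with profiles most like each of the 4 were found by Pearson's r of log2 values over the 12 arrays, among 13285 other named genes, 3 for each. The arrays share their groups, so a high r largely repeats the group pattern, and it is given as a description. For AT3G02840 they were AT1G74450 (r = 0.98), AT3G10930 (r = 0.96) and AT1G22510 (r = 0.96). Their wild-type changes with ATP were 1.15, 1.56 and 0.72 on the log2 scale, and those in dorn1-1 were 0.14, 0.22 and 0.13, so that none of the 3 had as large a dorn1-1 change as AT3G02840. For AT2G42360 they were HEMA2, a glutamyl-tRNA reductase of tetrapyrrole synthesis (r = 0.97), STZ (also ZAT10), a zinc finger repressor of stress responses (r = 0.97), and AT2G44370 (r = 0.96). STZ had a mean of 8.81 in dorn1-1 ATP against 8.86 in dorn1-1 buffer, and of 9.71 in wild-type ATP against 8.81 in wild-type buffer.

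For PUB22 the most similar genes were AT3G04640 (r = 0.96), AT2G18690 (r = 0.92) and AT1G05575 (r = 0.91). They changed with ATP by 0.89, 0.95 and 0.79 in the wild type, each more than PUB22. For PUB23 they were AT4G25390 (r = 0.98), AT5G66070 (r = 0.97) and AT1G61890 (r = 0.97). Like PUB23 and 11.1% of all probe sets, AT4G25390 and AT5G66070 were lower on all 3 dorn1-1 buffer arrays than on the wild-type buffer arrays. Their means were lower by 0.63 and 0.41 on the log2 scale, with 0.20 and 0.0057 between the nearest arrays. None of the 4 genes was among the 3 most like another of them. The closest pair was AT3G02840 and AT2G42360 (r = 0.89). The U-box pair PUB22 and PUB23 had r = 0.81, which placed PUB23 74th among the genes most like PUB22 and PUB22 161st among those most like PUB23.

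**Figure D3:**
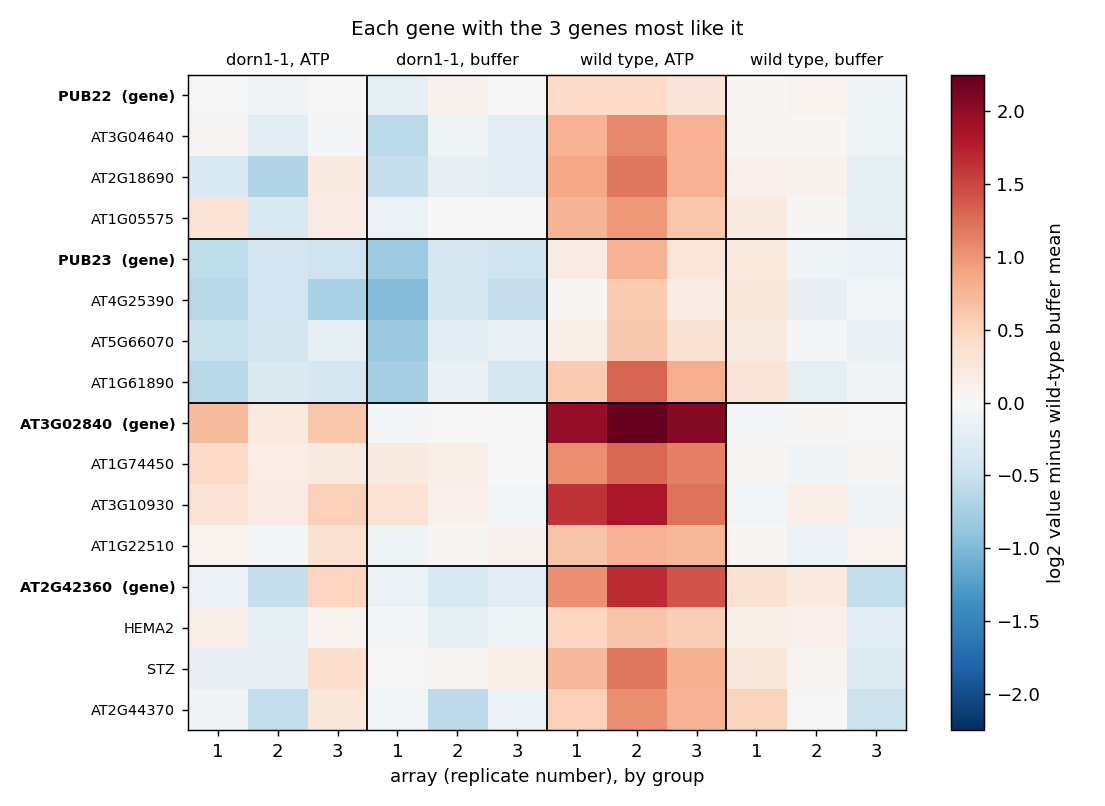
Log2 value minus the wild-type buffer mean (colour) on each of the 12 arrays (columns, by group) for the 4 genes (bold) and the 3 genes most like each (rows below it). Wild-type ATP columns are raised in all blocks, and the PUB23 block is also low in the dorn1-1 columns. Below PUB22, mean differences of dorn1-1 buffer from wild-type buffer are -0.32 (AT3G04640), -0.31 (AT2G18690) and -0.05 (AT1G05575), with overlapping arrays.

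No other listed and measured U-box gene was called in any of the 5 contrasts. The list was made by symbol or synonym and can miss family members. Of 23 listed U-box genes besides PUB22 and PUB23, 7 were measured on probe sets of their own. Limma called 0 of these 7 in either direction, against 0.00% of all probe sets in the dorn1-1 response, 0.664% in the wild-type response, 0.00879% in the difference in response, 6.68% between genotypes under ATP and 0.0659% between genotypes in buffer. At an unadjusted p under 0.05 there were 2 of the 7 between genotypes in buffer, PUB24 and PUB49, against 12.9% of all probe sets. In the wild-type response there was 1 of the 7, against 22.2% of all probe sets. It was PUB49, with a mean of 7.19 ± 0.15 in wild-type ATP against 7.52 ± 0.18 in wild-type buffer (SD, n = 3 each, log2 change -0.33, SE 0.12). The median wild-type change of the 7 was 0.03, against -0.03 over all probe sets, and 4 of the 7 were above 0, where 44.8% of all probe sets were. PUB24, the ligase that acts with PUB22 and PUB23, had log2 values of 5.68, 5.36 and 5.86 in dorn1-1 ATP, against 5.58, 5.30 and 5.33 in dorn1-1 buffer. In the wild type it had 5.87, 6.18 and 5.71 in ATP, against 5.73, 5.78 and 5.80 in buffer. The ATP and buffer arrays of PUB24 overlapped in both genotypes, with log2 changes of 0.23 in dorn1-1 and 0.15 in the wild type (SE 0.15 each, limma adjusted p = 1.00 and 0.590). In buffer PUB24 was lower on all 3 dorn1-1 arrays, as PUB23 was, with a difference of -0.37 (SE 0.15, limma adjusted p = 0.350). PUB49 and PUB43 were also lower on all 3 dorn1-1 buffer arrays, as were 11.1% of all probe sets. Their differences were -0.29 and -0.27 (limma adjusted p = 0.335 and 0.434). The wild-type changes of PUB15, PUB26 and PUB43 with ATP were 0.16, -0.10 and -0.05. Group means of PUB15 were 2.44 to 2.61 and those of PUB25 4.59 to 4.73, below the array medians of 6.07 to 6.17. Whether such low probe sets detect a transcript was not tested.

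The ATL family holds RING genes of the RING-H2 type. ATL genes were listed by symbol or synonym, leaving out the genes described here, so family members can be missing. Of 19 ATL genes in the list 3 were measured, and 0 were called by limma in the ATP response of either genotype. Of all probe sets 0.00% were called in the dorn1-1 response and 0.664% in the wild-type response. In the wild type 1 of the 3 had an unadjusted p under 0.05, against 22.2% of all probe sets. That gene, ATL8, had a lower mean with ATP, at 8.32 ± 0.59 in wild-type ATP against 9.15 ± 0.25 in wild-type buffer (SD, n = 3 each, log2 change -0.82, SE 0.28, limma adjusted p = 0.130). ATL5 had 5.31 ± 0.05 in wild-type ATP against 5.11 ± 0.11 in wild-type buffer (SD, n = 3 each, log2 change 0.20, SE 0.12). Under ATP, ATL5 was lower in dorn1-1 than in the wild type, at 4.86 ± 0.10 against 5.31 ± 0.05 (SD, n = 3 each, difference -0.45, SE 0.12, limma adjusted p = 0.0423), the 1 call among the 3. Of all probe sets 2.00% were called lower in that comparison and 6.68% in either direction. ATL5 was called in 3 of 12 fits with single arrays omitted, those without 1 of the dorn1-1 buffer arrays, and its difference lay between -0.50 and -0.40 in the 12. Those 3 fits called 2643, 1786 and 1225 of 22746 probe sets, where the 12 ranged from 272 to 2643. Of 8 other settings ATL5 was called in 5, and not with the shoot marker covariate, a fit of only the groups compared, or moderation that was trended and robust. In a further setting ATL5 itself was removed, as its mean was under the 40th percentile of probe sets. ATL63 changed by -0.05 with ATP in the wild type (SE 0.14), at low group means of 4.22 to 4.33.

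Genes of pattern-triggered immune signalling were followed because the U-box pair acts on that pathway. Of 26 in the list 4 were measured: EFR, a receptor of bacterial elongation factor, BIK1, a kinase that acts directly below such receptors, and the transcription factors WRKY22 and WRKY53. By limma 0 were called in any contrast, against 0.00% to 6.68% of all probe sets over the 5 contrasts. At an unadjusted p under 0.05 there were 0 of the 4 in the dorn1-1 response, against 2.30% of all probe sets, and 1 in the wild-type response, BIK1, against 22.2%. In the genotype difference under ATP there were 3 of the 4, against 21.7% of all probe sets. The median log2 change with ATP was 0.11 in dorn1-1 and 0.47 in the wild type, and all 4 means were higher with ATP in both genotypes. In the wild type 44.8% of all probe sets had a higher mean with ATP. BIK1 changed by 0.50 in the wild type (SE 0.18, limma adjusted p = 0.150), with its 3 ATP arrays between 8.74 and 9.08 and its 3 buffer arrays between 8.38 and 8.42. WRKY22 changed by 0.44 (SE 0.22), WRKY53 by 0.76 (SE 0.51) and EFR by 0.26 (SE 0.20). The buffer and ATP arrays of WRKY53 and EFR overlapped, and EFR had low group means of 3.56 to 4.14.

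**Figure D4:**
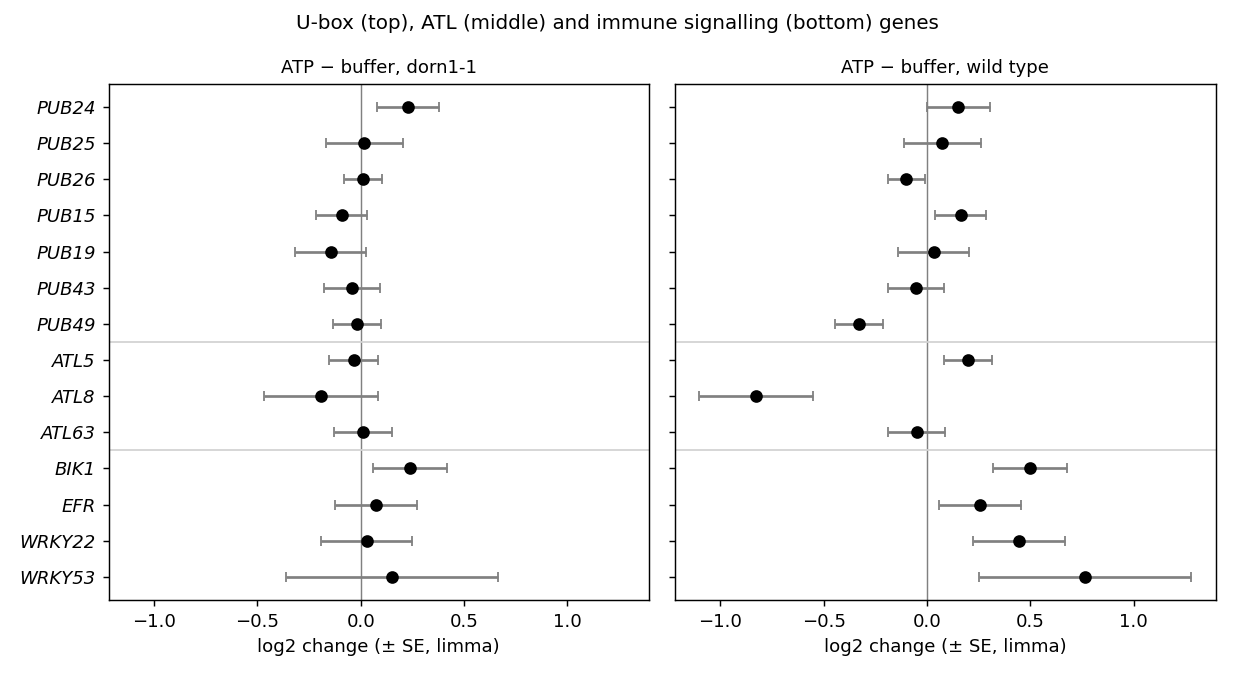
Log2 change with ATP and its limma SE (horizontal axis) for 7 U-box genes (top), 3 ATL genes (middle) and 4 immune signalling genes (bottom), in dorn1-1 (left) and the wild type (right). The U-box genes scatter around 0, ATL8 lies at -0.82 in the wild type, and the 4 immune genes lie between 0.26 and 0.76 in the wild type.

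**Figure D5:**
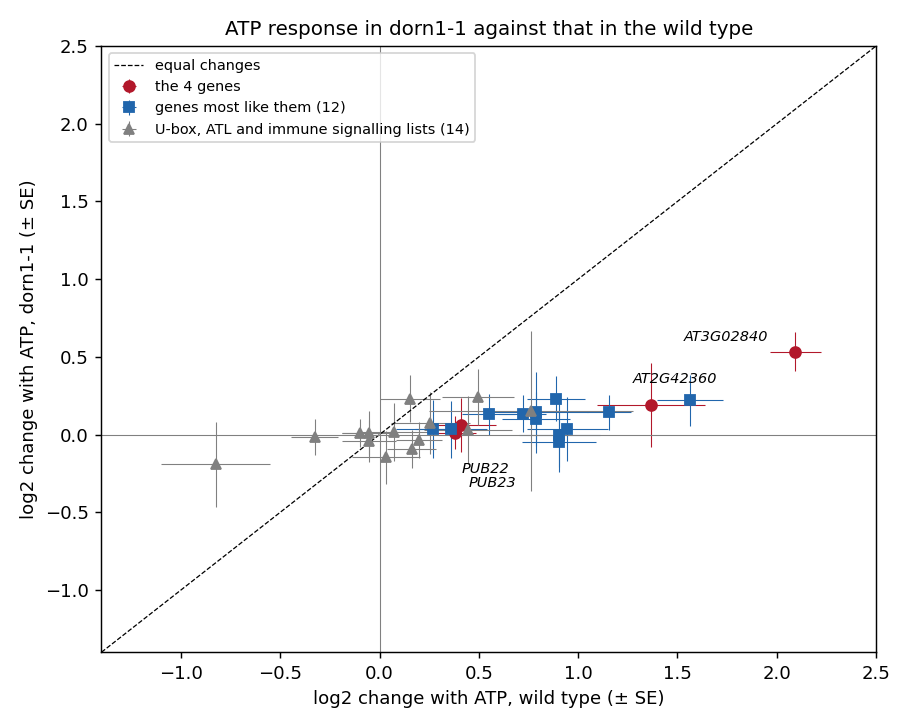
Log2 change with ATP in dorn1-1 (vertical axis) against that in the wild type (horizontal axis), each with its SE, for the 4 genes, the 12 genes most like them and the 14 genes of the lists; the dashed line marks equal changes. The 2 axes share no arrays. The 4 genes lie below the line, AT3G02840 farthest to the right at 2.09 and 0.53.

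Neighbouring genes were compared after the data were seen. Among the 5 nearest coding genes on either side of each of the 4, 21 were measured, and their wild-type changes with ATP lay between -0.32 and 0.57 on the log2 scale. The changes of AT3G02840 (2.09) and AT2G42360 (1.37) lay above that range, and those of PUB22 and PUB23 within it. AT2G42350, the coding gene next to AT2G42360, changed by 0.11 in dorn1-1 and 0.02 in the wild type. The highest neighbour, AT3G52480 near PUB22, changed by -0.28 in dorn1-1 and 0.57 in the wild type, more than PUB22 itself.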

How the data were processed

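The deposited values are log2 expression estimates of each probe set on each array. The authors obtained them by RMA, and the submitters' processing notes name affy. RMA subtracts background, gives arrays a common distribution and summarises probes. The version of affy is not given in the sources used here, nor whether all 12 arrays were normalised as 1 set. RMA compresses differences near background and hides a change shared by most transcripts. Array medians were 6.07 to 6.17 on the log2 scale.

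After 64 control probe sets were left out, 22746 were fitted by limma 3.58.1 (R 4.3.3) as 4 group means, with empirical Bayes moderation and Benjamini-Hochberg adjustment over all probe sets in each of 5 contrasts, at 0.05. The fit was tested on simulated data. Groups came from the sample titles. Probe sets were named from the platform annotation, and 13436 with exactly 1 gene matched the RefSeq table of TAIR10.1, used for names, chromosomes and gene order. Related genes can share probes. Single values per array were compared by exact permutation. Figures used matplotlib 3.10.9.

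The genes and lists were chosen with earlier results of these data known. Besides the 4 genes, the text names for each the 3 genes with the highest r, neighbours where a result turned on them, and from each list the genes called in any contrast or up to 5 with the lowest unadjusted p in the wild-type response. U-box and ATL genes were listed by symbol or synonym. Alternatives were 3 scalings, removal of probe sets with a mean under the 40th percentile, trend and robust moderation, array weights, a replicate block, fits of only the groups compared, a shoot marker covariate and omission of each array.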

Additional observations from a re-analysis of the deposited data

Results flagged for a closer look

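AT3G02840 was singled out because its ATP response differed between the genotypes by the test of the difference in response itself, at -1.56 on the log2 scale (SE 0.18). The gene was picked with this difference known, so the test is not independent of the choice. Groups of 3 arrays are too small for a test of single outlying arrays.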

How the results depend on the processing

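In the wild-type response, the difference in response and the buffer and ATP comparisons, the values of the 4 genes moved by less than their within-group SD under every alternative, except that AT3G02840 without 1 array ranged from -1.65 to -1.41 in the difference in response and from -1.67 to -1.43 between genotypes under ATP, the smaller sizes being without dorn1-1 ATP replicate 2. The small dorn1-1 changes took the other sign in some fits: PUB22 was -0.00065 with median centring and -0.028 with array weights, and PUB23 was -0.028 with array weights. Without 1 array the dorn1-1 change ranged from -0.079 to 0.080 for PUB22, from -0.072 to 0.14 for PUB23 and from -0.074 to 0.42 for AT2G42360. PUB22 and PUB23 were lowest without dorn1-1 buffer replicate 1, and AT2G42360 without dorn1-1 ATP replicate 3. The cause was not tested. List calls in the wild-type response were 1 each for the U-box, ATL and immune lists with array weights and 2 for the immune list with only the 2 groups in the fit, against 0 otherwise. Of all 22746 probe sets, the weighted fit called 6203 in that response and the fit of only the 2 groups 2506. The unweighted fit of all 4 groups called 151.

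Deviations of same-numbered arrays correlated between -0.28 and 0.56, and those of differently numbered arrays between -0.58 and 0.44. Of 12 arrays, 5 correlated best with an array of their own number. The ranges overlap, so they do not settle whether replicate numbers pair the arrays. With the replicate number as a block the call for AT3G02840 in the difference in response was lost (-1.56), as was that of PUB22 between genotypes under ATP (-0.40). PUB22 in that comparison was also not called with trend and robust moderation or with only the groups compared, and AT2G42360 in the wild-type response was not called with quantile scaling or the shoot marker covariate. With array weights PUB22 and PUB23 were called in the wild-type response and PUB23 in buffer. That fit called 6203 of 22746 probe sets in the wild-type response and 2568 in buffer, against 151 and 15 without weights. A mean over several probe sets could not be run, as each gene had 1.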
